A study of Homo sapiens with 10 samples.

Results

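The genes described here are targets of the tumour suppressor p53 and of the wider stress response around it, read in a bile duct cancer line with and without a YAP1 construct. The list holds TP63, MDM2, SFN, TIGAR, SESN1, SESN2, TP53I3, ZMAT3 and RRM2B. Their members on the array are all probe sets that the platform annotation gives exactly 1 gene symbol, that symbol being one of the list. This found 24 probe sets of 8 genes, of 54613 probe sets and 19775 genes tested. TP63, the p53 relative that maintains basal epithelium, was not analysed here. The cells were of the established human line HuCCT1, which derives from an intrahepatic cholangiocarcinoma. 5 arrays held cells with the construct labelled YAPS94A, and 5 held cells with an empty vector. YAP1 is a co-activator that the Hippo kinases keep out of the nucleus. The sample labels name the change S94A, known to weaken binding to the TEAD transcription factors, whereas the series' design text names S127A, known to keep YAP1 active, and the construct is called by its label. No label gives the promoter of the vectors, whether lines or pools of cells were used, or whether replicate arrays stand for separate cultures. The p-values therefore set the difference between vectors against the spread among arrays of one vector, and that spread may be technical.

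In unstressed cells p53 is kept scarce by MDM2, a ubiquitin ligase that marks it for degradation. DNA damage, nutrient shortage and oncogene activity relieve that control, and p53 then switches on genes that stop the cell cycle, repair DNA, adjust metabolism or kill the cell. HuCCT1 is known to carry a mutated p53 gene, and most of the genes described here also answer to other factors, so their levels are not a readout of p53 alone. In bulk RNA a lower signal from fewer expressing cells and from less RNA per cell cannot be told apart.

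All values are deposited log2 signals, on which 1 unit is a doubling and which ran from 2.86 to 14.43 on these arrays. Array medians lay between 6.25 and 6.28. Over all probe sets the arrays correlated at 0.9957 to 0.9991 within a vector and at 0.9867 to 0.9902 between vectors, and no 2 arrays were identical. The YAP1 transcript was higher with YAPS94A on all 3 of its probe sets, by 1.44-fold at the brightest (0.52 ± 0.11, SE, limma adjusted p = 0.00384). The 7 bile duct epithelial markers measured were bright in both vectors, with group means of 12.65 to 14.30. With YAPS94A 5 of them were higher, 0 were lower and 2 did not pass (71.4% past the test, against 34.4% of all genes). Their summed linear signal was 87795 to 90408 on YAPS94A arrays and 78332 to 80691 on empty vector arrays. The endothelial markers were below the median gene level of 7.63 for 5 of 5 measured, and so were 5 of 6 blood cell, 5 of 6 hepatocyte and 4 of 6 fibroblast markers. SERPINA1, the hepatocyte marker above that level, had means of 12.65 with YAPS94A and 12.84 with empty vector. It was lower with YAPS94A (-0.19 ± 0.043, SE, limma adjusted p = 0.00576), as on 3 of its 4 probe sets, and the other 5 hepatocyte markers did not pass. Of the 6 fibroblast markers 1 was higher with YAPS94A, LUM, which encodes the matrix proteoglycan lumican (2.67 ± 0.088, SE), and 5 did not pass, among them COL1A1 (-0.12) and COL3A1 (-0.0031). The summed linear signal of the fibroblast markers was 2118 to 2501 on YAPS94A arrays and 811 to 1002 on empty vector arrays. Of the 6 blood cell markers 2 were lower, LYZ (-1.48 ± 0.12) and HBB (-1.40 ± 0.085), and their summed signal was 368 to 410 on YAPS94A arrays and 622 to 715 on empty vector arrays. The part of these marker genes in the results below was not tested.

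Of the 24 probe sets, 9 passed the test, 4 of them higher and 5 lower with YAPS94A, while 15 did not pass. The test was limma over all probe sets with a Benjamini-Hochberg adjusted p under 0.05, which 28.6% of all probe sets passed, 13.9% higher and 14.7% lower. Among probe sets at or above the median level 44.8% passed. The 5 arrays of one vector lay wholly above or below the 5 of the other at 8 of the 24 probe sets, against 23.0% of all probe sets. Taken by the brightest probe set of each gene, 2 of the 8 genes were higher (SFN and TP53I3), 3 were lower (TIGAR, SESN1 and ZMAT3) and 3 did not pass (MDM2, SESN2 and RRM2B), where 34.4% of all 19775 genes passed, 17.8% higher and 16.6% lower. For 5 of the 8 genes the arrays of the vectors did not overlap, which held for 29.1% of all genes. The median difference was -0.036 over the 8 genes and -0.0038 over all genes, and the median size of the difference was 0.29 over the 8 genes and 0.10 over all genes. The genes thus did not share a direction, and no called difference reached 2-fold.

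**Figure D1:**
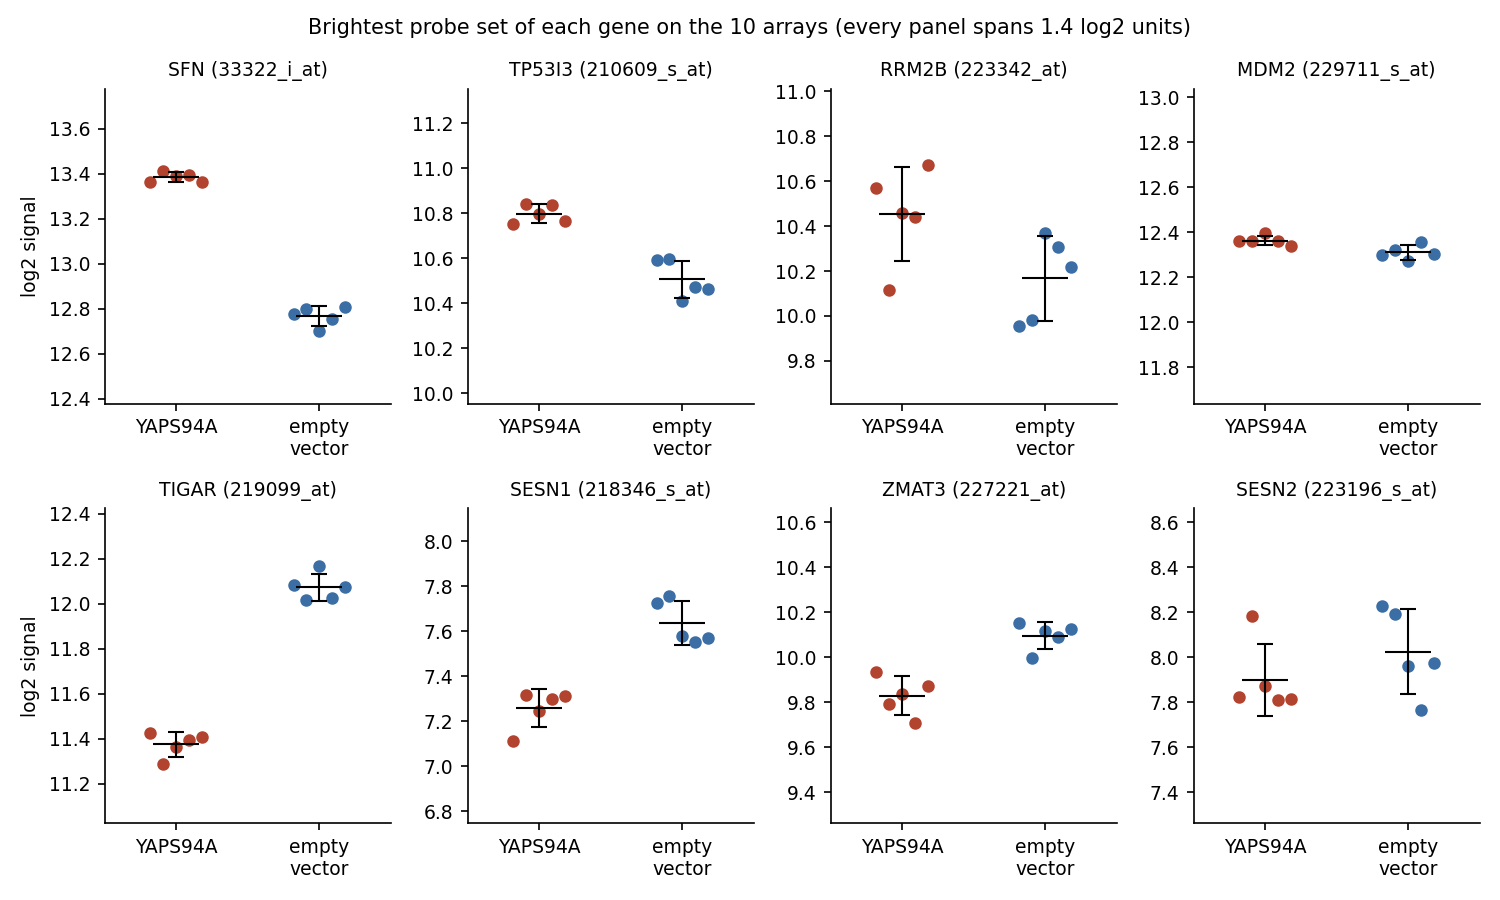
Log2 signal of the brightest probe set of each of the 8 genes on each array (points), YAPS94A on the left and empty vector on the right of every panel, with the group mean and SD (bar and error bar, n = 5 each). The vectors separate without overlap for SFN, TIGAR, SESN1, TP53I3 and ZMAT3, and overlap for MDM2, SESN2 and RRM2B.

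The promoters of 4 of the 5 genes that changed and of MDM2 are shown, since p53 and TEAD act through short DNA motifs. ZMAT3, the other gene that changed, is not shown, and its 2 windows held no match. The windows shown for MDM2 (1 of 4) and SESN1 (1 of 3) are ones that held a p53 match. Each is the 250 bases before a transcription start, taken from RefSeq on GRCh38.p14 and written on the strand of the gene. The positions are chr1:26862899-26863148 (plus strand) for SFN, chr12:4320963-4321212 (plus strand) for TIGAR, chr6:109008989-109009238 (minus strand) for SESN1, chr2:24084835-24085084 (minus strand) for TP53I3 and chr12:68808767-68809016 (plus strand) for MDM2. Capitals mark motif matches.
SFN: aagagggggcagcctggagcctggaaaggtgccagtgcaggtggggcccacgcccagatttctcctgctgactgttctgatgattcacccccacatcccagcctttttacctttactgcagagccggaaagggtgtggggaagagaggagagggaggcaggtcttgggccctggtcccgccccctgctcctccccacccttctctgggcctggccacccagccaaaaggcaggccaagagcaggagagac
TIGAR: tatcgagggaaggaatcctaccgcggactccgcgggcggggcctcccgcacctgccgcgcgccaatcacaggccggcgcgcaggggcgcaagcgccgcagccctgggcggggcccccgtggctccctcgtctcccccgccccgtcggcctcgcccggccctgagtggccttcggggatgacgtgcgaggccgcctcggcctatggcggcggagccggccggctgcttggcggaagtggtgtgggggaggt
SESN1: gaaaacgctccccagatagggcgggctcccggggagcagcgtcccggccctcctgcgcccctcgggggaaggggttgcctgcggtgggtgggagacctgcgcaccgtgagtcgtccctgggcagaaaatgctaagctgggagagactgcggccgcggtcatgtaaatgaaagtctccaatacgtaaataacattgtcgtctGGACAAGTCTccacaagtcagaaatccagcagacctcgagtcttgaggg
TP53I3: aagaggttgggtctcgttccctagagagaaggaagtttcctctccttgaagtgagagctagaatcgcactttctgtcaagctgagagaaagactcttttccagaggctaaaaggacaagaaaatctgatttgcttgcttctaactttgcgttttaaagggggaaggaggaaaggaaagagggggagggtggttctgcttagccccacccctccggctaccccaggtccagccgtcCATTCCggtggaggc
MDM2: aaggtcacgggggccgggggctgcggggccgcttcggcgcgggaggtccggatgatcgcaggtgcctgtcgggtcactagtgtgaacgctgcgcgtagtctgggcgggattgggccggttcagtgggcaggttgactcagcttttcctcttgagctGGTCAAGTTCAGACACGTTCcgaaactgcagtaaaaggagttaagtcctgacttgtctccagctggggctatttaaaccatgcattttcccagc
Motifs were searched on both strands of these windows. The capitals of MDM2 are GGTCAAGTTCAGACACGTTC, at positions -94 to -75 from the start, a match to the p53 response element (a pair of decamers, with 2 mismatches in all). This window belongs to the promoter inside the first intron, which is known as the p53-responsive one. Such a match was in 1.12% of 35116 windows of the same length. The capitals of SESN1 are GGACAAGTCT, at -49 to -40, a single p53 decamer without mismatch, as found in 5.57% of windows. The capitals of TP53I3 are the reverse complement of GGAATG, the TEAD core, at -15 to -10, and 11.9% of windows held that motif. The SFN and TIGAR windows held neither motif, which says only that these letters are not in these bases. In all, 13 windows of 7 of the genes were searched. The full p53 element was in 2 of them, which are overlapping MDM2 windows, the single decamer in 1 and GGAATG in 2, the second of which is another SESN1 start. These matches are descriptions of sequence and not of binding in these cells.

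MDM2 is itself switched on by p53, which closes a feedback loop, and its transcript did not pass limma's test at any of its 10 probe sets, where 0 had an unadjusted p under 0.05. At the brightest, 229711_s_at, it read 12.36, 12.36, 12.40, 12.36 and 12.34 with YAPS94A, against 12.30, 12.32, 12.27, 12.36 and 12.30 with empty vector. The groups overlapped there, as at the other 9 probe sets. The difference was 0.053 ± 0.033 (SE, adjusted p = 0.292). Its 95% interval ran from -0.020 to 0.13, the upper end being a 1.09-fold rise at this probe set. Dimmer probe sets had wider intervals, with an upper end of 1.35-fold at 211832_s_at. The 10 probe sets differed by 0.0050 to 0.16, with adjusted p-values of 0.292 to 0.963, and 4 of them lay below 4.73, the lower quartile of all signals. Relative to its 30 nearest neighbours on chromosome 12, whose median difference was -0.036, the brightest MDM2 probe set was at 0.089 and passed (adjusted p = 0.0398).

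Of 24 listed regulators and cofactors of p53, 22 were measured, and 3 were higher, 4 were lower and 15 did not pass, with a median of -0.034. The share past the test was 31.8%, near the 34.4% of all genes, and in a fit blocked by array number 5 were higher. RCHY1, a ubiquitin ligase that also targets p53, fell, with 10.34, 10.27, 10.34, 10.28 and 10.25 on YAPS94A arrays against 10.75, 10.69, 10.83, 10.79 and 10.69 on empty vector arrays. Its difference was -0.45 ± 0.042 (SE, adjusted p = 6.05e-06), 3 of its 4 probe sets passed, and without probe sets ending in _x_at or _s_at the one left was at -0.17 and did not pass (adjusted p = 0.75). HIPK2, a kinase that phosphorylates p53 after severe damage, fell at its brightest probe set by 0.32 ± 0.049 (SE, adjusted p = 0.000359), while 8 of its 10 probe sets did not pass. TP53BP2, which encodes the p53-binding protein ASPP2, fell by 0.29 ± 0.056 on its only probe set. The lower genes also included USP7, the deubiquitinase of MDM2 and p53, which differed by -0.25 ± 0.061. The 3 higher genes were ATM, the DNA damage kinase (0.47 ± 0.094, with 3 of 6 probe sets past the test), CDKN2A (0.22 ± 0.043) and the acetyltransferase gene KAT5 (0.20 ± 0.041), the last a pair read by _x_at probe sets, which are open to cross-hybridisation. USP7, ATM, CDKN2A and KAT5 are named after their values were seen, to complete the counts. So are PML, CHEK1 and CREBBP, which count as not past at their brightest probe sets. Rises passed on 3 of 10 probe sets of PML, whose differences ran from -0.18 to 0.87, and on 1 of 4 of CHEK1. A fall passed on 1 of 4 of CREBBP. MDM4, the partner of MDM2, differed by -0.063 ± 0.16 (adjusted p = 0.837) with 0 of 6 probe sets past limma's test and 0 at an unadjusted p under 0.05. TP73, the p53 paralogue, differed by 0.011 ± 0.10 (adjusted p = 0.957) with 0 of 3 past the test and 1 at an unadjusted p under 0.05.

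SFN had the larger of the 2 called rises. It encodes 14-3-3 sigma, an epithelial protein that p53 induces and that holds cyclin B1 and its kinase in the cytoplasm. The brightest probe set, 33322_i_at, read 13.36, 13.41, 13.39, 13.40 and 13.36 with YAPS94A, against 12.78, 12.80, 12.70, 12.75 and 12.81 with empty vector. Every YAPS94A array lay above every empty vector array, and the spread within a vector was small beside the gap. The means were 13.39 ± 0.021 and 12.77 ± 0.043 (SD, n = 5 each), a 1.53-fold rise (0.62 ± 0.035, SE, adjusted p = 1.06e-07). The probe set 209260_at, the only one of SFN without a suffix marking reduced specificity, read 12.12, 12.18, 12.20, 12.26 and 12.24 with YAPS94A, against 11.21, 11.32, 11.10, 11.27 and 11.43 with empty vector. Its rise was larger, at 1.91-fold (0.93 ± 0.059, adjusted p = 2.69e-07), and that of 33323_r_at was 0.57 ± 0.044 (adjusted p = 1.28e-06). The 3 probe sets agreed in direction and none overlapped between vectors. The brightest SFN signals were near the highest signal on the arrays, and whether differences are compressed there was not tested.

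The other 14-3-3 genes differed by less or did not pass. Of 6 measured besides SFN, 1 was higher and 5 did not pass (16.7% past the test, against 34.4% of all genes), with a median of -0.027. YWHAZ, 14-3-3 zeta, differed by 0.13 ± 0.037 (SE, adjusted p = 0.0217) and passed on 2 of 5 probe sets. This call was lost without YAPS94A replicate 1 (0.11, adjusted p = 0.0526), without YAPS94A replicate 3 (0.12, adjusted p = 0.0535), without the arrays numbered 1 and 2 of both vectors (0.11, adjusted p = 0.0946), in a fit blocked by array number (adjusted p = 0.0525) and relative to its neighbours (0.093, adjusted p = 0.0561). YWHAE differed by -0.048 (adjusted p = 0.379) and YWHAG by -0.041 (adjusted p = 0.51). A difference between the rise of SFN and those values was not tested.

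Among other p53 targets that stop the cell cycle, 3 of 11 measured were higher, 3 were lower and 5 did not pass (54.5% past the test, against 34.4% of all genes), with a median of 0.088. In a fit blocked by array number 5 were higher. CDKN1A, the cyclin-dependent kinase inhibitor p21, rose, reading 11.05, 11.07, 10.92, 10.92 and 10.95 with YAPS94A against 10.65, 10.65, 10.48, 10.32 and 10.41 with empty vector. The groups did not overlap and the difference was 0.48 ± 0.068 (SE, adjusted p = 0.000207, 1.39-fold). CCNG1, cyclin G1, rose by 0.35 ± 0.042 (adjusted p = 5.29e-05) and was at 0.17 relative to its neighbours (adjusted p = 0.00533). TP53INP1, an autophagy-linked stress protein gene, rose by 0.31 ± 0.081 on its brightest probe set only. PLK2, a polo-like kinase gene, fell by 0.30 ± 0.054, PLK3 by 0.31 ± 0.078 and GDF15, a secreted stress cytokine gene, by 0.42 ± 0.078. PLK3 passed on 1 of its 3 probe sets. TP53INP1, PLK3 and GDF15 are named after their values were seen.

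TIGAR had the largest of the 3 called falls. Its protein lowers fructose-2,6-bisphosphate, the activator of glycolysis, and so favours the pentose phosphate route that supplies NADPH. The single probe set, 219099_at, read 11.43, 11.29, 11.37, 11.39 and 11.41 with YAPS94A, against 12.08, 12.02, 12.17, 12.02 and 12.08 with empty vector. All YAPS94A arrays were lower than all empty vector arrays. The means were 11.38 ± 0.055 and 12.07 ± 0.060 (SD, n = 5 each), a 1.62-fold fall (-0.70 ± 0.043, SE, adjusted p = 2.04e-07). The genes around TIGAR on chromosome 12 were lower too, with 20 of the 30 nearest genes above the median level lower, 1 higher and 9 not past the test, and a median of -0.26. Relative to that median TIGAR was at -0.43 and still passed. Only 2 of its 30 neighbours were lower than it.

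TP53I3, which encodes a quinone oxidoreductase tied to oxidative stress, rose slightly. Its only probe set, 210609_s_at, read 10.75, 10.84, 10.80, 10.84 and 10.77 with YAPS94A, against 10.59, 10.60, 10.41, 10.47 and 10.46 with empty vector. The groups did not overlap. The means were 10.80 ± 0.041 and 10.51 ± 0.083 (SD, n = 5 each), a 1.22-fold rise (0.29 ± 0.046, SE, adjusted p = 0.000454).

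Enzymes that work with or resemble TIGAR, RRM2B and TP53I3 were divided. Of the 9 measured, 3 passed with a rise and 1 with a fall (44.4%, against 34.4% of all genes), and the median was 0.067. PFKFB3, which makes the fructose-2,6-bisphosphate that TIGAR removes, rose. It read 12.30, 12.28, 12.28, 12.23 and 12.19 with YAPS94A, against 11.61, 11.56, 11.57, 11.54 and 11.51 with empty vector. The difference was 0.69 ± 0.037 (SE, adjusted p = 6.53e-08). Relative to its neighbours PFKFB3 was at 0.14 and still passed (adjusted p = 0.00627). FBP1, the gluconeogenic bisphosphatase that fructose-2,6-bisphosphate inhibits, rose by 0.73 ± 0.053 (adjusted p = 7.8e-07). CRYZ, a quinone oxidoreductase of the same family as TP53I3, fell by 0.30 ± 0.033 (adjusted p = 2.78e-05), whereas VAT1, another relative, named after its value was seen, rose by 0.43 ± 0.10.

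Of 15 other p53 targets in metabolism and autophagy 13 were measured, and 4 were higher, 2 were lower and 7 did not pass (46.2% past the test, against 34.4% of all genes), with a median of 0.079. In a fit blocked by array number 4 were lower. LPIN1, a phosphatidate phosphatase, rose on all 3 of its probe sets, by 0.51 ± 0.052 at the brightest (SE, adjusted p = 1.54e-05). CMBL, a hydrolase, rose by 0.52 ± 0.041 at its brightest probe set, and its 2 dimmer probe sets did not pass. DRAM1, a lysosomal protein gene needed for p53-driven autophagy, rose by 0.22 ± 0.049. The remaining calls, named after their values were seen, were ALDH4A1 (0.20 ± 0.071), ACER2 (-0.37 ± 0.091) and ISCU (-0.19 ± 0.058). Their limma adjusted p-values were 0.0497, 0.00946 and 0.0277, and the groups overlapped for each. ALDH4A1 passed on 2 of 2 probe sets. The lower count fell to 1 without any 1 of empty vector replicates 1, 2 and 3 or YAPS94A replicates 1 and 5. With quantile normalization 3 were higher.

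The sestrins restrain the growth kinase complex mTORC1 when amino acids are short, by binding GATOR2. SESN1 read 7.11, 7.32, 7.25, 7.30 and 7.31 with YAPS94A, against 7.73, 7.76, 7.58, 7.55 and 7.57 with empty vector. The groups did not overlap, and the fall was 1.30-fold (-0.38 ± 0.057, SE, adjusted p = 0.000313), with means of 7.26 ± 0.085 and 7.64 ± 0.096 (SD, n = 5 each). SESN1 lies on the long arm of chromosome 6, in a stretch where most genes were lower with YAPS94A. Of its 30 nearest genes above the median level, 25 were lower and 5 did not pass, with a median of -0.31. By limma 0 were higher, also at an unadjusted p under 0.05. Relative to that median SESN1 was at -0.069 and did not pass (adjusted p = 0.35), and 13 of the 30 neighbours were lower than it.

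SESN2, a leucine-sensing sestrin, did not pass on either probe set. At 223196_s_at it read 7.82, 8.18, 7.87, 7.81 and 7.82 with YAPS94A, against 8.23, 8.19, 7.96, 7.77 and 7.98 with empty vector. YAPS94A replicate 2 stood above the other 4 of its vector, and the groups overlapped. The difference was -0.12 ± 0.098 (SE, adjusted p = 0.414), with a 95% interval of -0.34 to 0.091, and 223195_s_at was at -0.12 ± 0.060 (adjusted p = 0.162). SESN3, the third sestrin, differed by -0.043 ± 0.066 (adjusted p = 0.706) with 0 of 7 probe sets past limma's test and 0 at an unadjusted p under 0.05, and by -0.21 relative to its neighbours (adjusted p = 0.02).

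The sestrins act through the GATOR complexes, which pass the amino acid signal to mTORC1. Of 14 genes of these complexes and of other restraints on mTORC1, 1 was higher, 2 were lower and 11 did not pass (21.4% past the test, against 34.4% of all genes), with a median of -0.098. In a fit blocked by array number 4 were lower. CASTOR2 and its relative CASTOR1, an arginine sensor, were the lower genes, at -0.24 ± 0.048 (SE, adjusted p = 0.00257) and -0.21 (adjusted p = 0.0175). CASTOR1 lost its call without the arrays numbered 1 and 2 (-0.16, adjusted p = 0.171) and was at 0.088 relative to its neighbours. SEC13, a subunit of GATOR2 that also serves vesicle coats, was the higher gene at 0.16 ± 0.036 (adjusted p = 0.00454), and it was at -0.15 relative to its neighbours (adjusted p = 0.00408), a reversed direction.

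SESN2 is also a target of ATF4, the transcription factor of the integrated stress response, so the genes of that response were counted too. Of 24 measured, 5 were higher, 3 were lower and 16 did not pass, with a median of -0.040. The share past the test was 33.3%, near the 34.4% of all genes, and in a fit blocked by array number 9 were higher and 6 lower. ATF3, a stress-induced transcription factor gene, rose. It read 9.28, 9.28, 9.22, 9.38 and 9.22 with YAPS94A, against 8.27, 8.21, 8.20, 8.16 and 8.16 with empty vector (1.07 ± 0.042, SE, adjusted p = 4.54e-09, 2 of 3 probe sets past the test). VLDLR, a lipoprotein receptor, fell by 1.17 ± 0.084 (adjusted p = 7.78e-07). ASNS, asparagine synthetase, rose by 0.46 ± 0.069 on its bright _s_at probe set and was at -0.056 on a dim one. ATF4 itself differed by -0.096 ± 0.036 (adjusted p = 0.0666), a value given although ATF4 falls outside the rule for named genes.

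ZMAT3 encodes a zinc finger protein that binds RNA and regulates splicing and transcript stability as part of p53's tumour suppression. It was lower at all 5 probe sets, of which 3 passed. The brightest, 227221_at, read 9.94, 9.79, 9.84, 9.71 and 9.87 with YAPS94A, against 10.15, 10.00, 10.12, 10.09 and 10.13 with empty vector. The groups did not overlap and the fall was 1.20-fold (-0.27 ± 0.050, SE, adjusted p = 0.00147). The dim probe set 1555609_a_at, with means of 5.15 with YAPS94A and 5.46 with empty vector, was lower by a similar amount (-0.31 ± 0.073, adjusted p = 0.00626). At 219628_at the difference was -0.25 ± 0.080 (adjusted p = 0.0385), the groups overlapped, and the call was lost in 9 of 19 alternatives, among them the removal of any 1 YAPS94A array or of empty vector replicate 2, 4 or 5, with differences of -0.26 to -0.19. The other probe sets, 228315_at and 225725_at, differed by -0.24 ± 0.093 and -0.17 ± 0.075 (adjusted p = 0.0848 and 0.114), and both passed in a fit blocked by array number (adjusted p = 0.0181 and 0.00624).

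RRM2B, the small subunit of ribonucleotide reductase that p53 induces to supply nucleotides for DNA repair, was higher on average but did not pass. It read 10.57, 10.12, 10.46, 10.44 and 10.67 with YAPS94A, against 9.96, 9.98, 10.37, 10.31 and 10.22 with empty vector. YAPS94A replicate 2 lay below 3 of the empty vector arrays, and the groups overlapped. The difference was 0.28 ± 0.11 (SE, adjusted p = 0.0774), with a 95% interval of 0.044 to 0.53. Without YAPS94A replicate 2 it was 0.37 and passed (adjusted p = 0.0118). The control probe sets read at both ends of their transcripts differed by 0.82 log2 units, 3′ minus 5′, on that array, against 0.44 to 0.68 on the other YAPS94A arrays and 0.48 to 0.85 on empty vector arrays. With that difference as a covariate RRM2B passed (adjusted p = 0.0191), as it did in a fit blocked by array number (adjusted p = 0.0269). In 17 of 21 alternatives RRM2B did not pass. The partner RRM1 differed by -0.0058 ± 0.043 (adjusted p = 0.944), and RRM2, the small subunit used in S phase, by 0.070 ± 0.039 (adjusted p = 0.223).

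**Figure D2:**
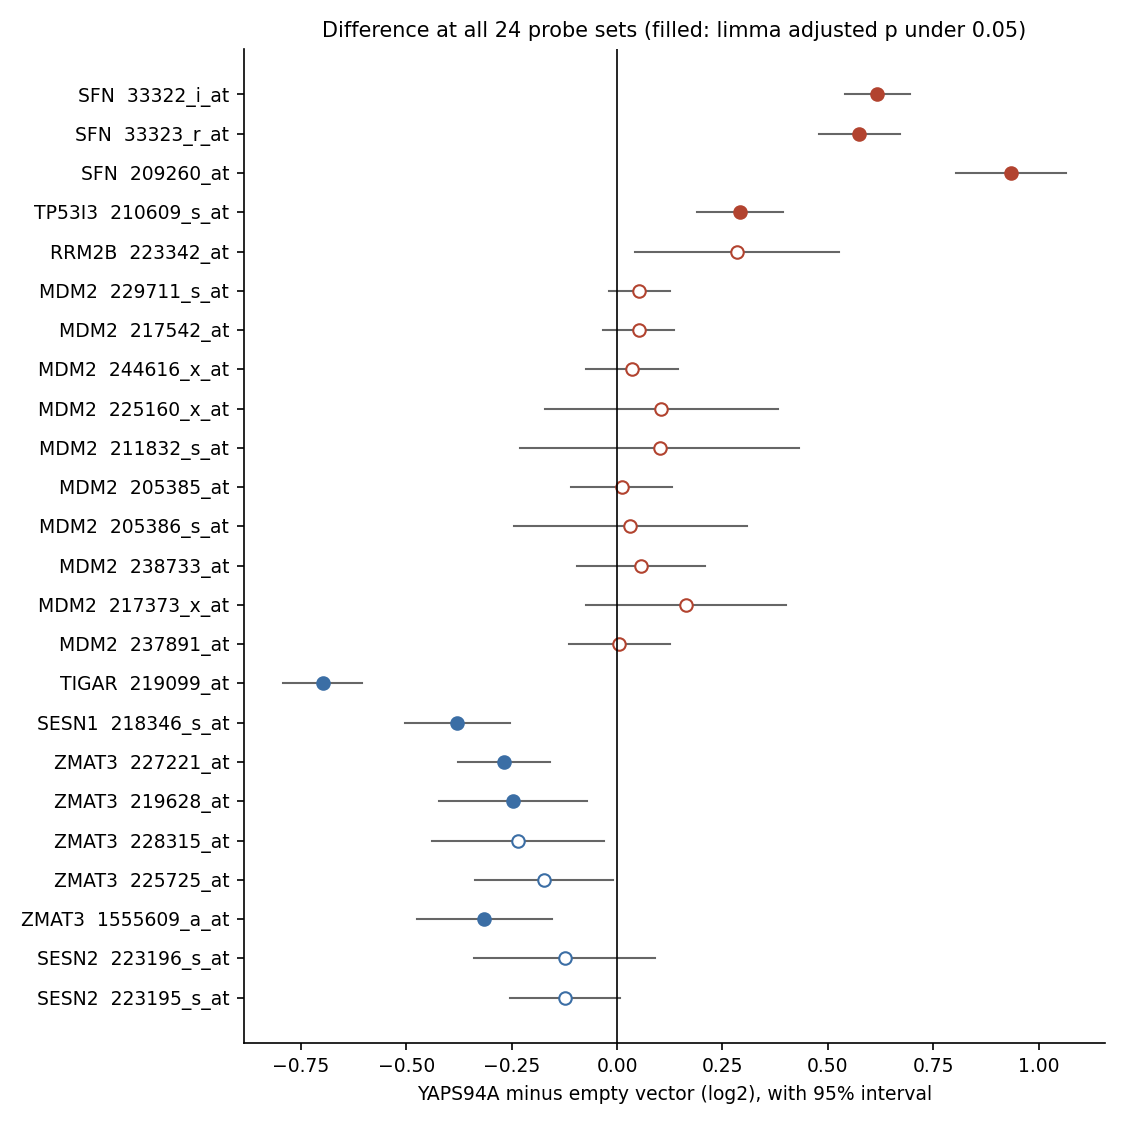
Difference in log2 signal, YAPS94A minus empty vector, at each of the 24 probe sets grouped by gene, with its 95% interval from limma (n = 5 arrays per vector). Filled points passed the adjusted p of 0.05. All 3 SFN probe sets lie above 0 and all 5 of ZMAT3 below it, while the 10 of MDM2 cluster near 0.

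Of the other p53 targets in DNA repair 7 were measured, with 3 higher and 4 not past the test (42.9% past it, against 34.4% of all genes) and a median of 0.051. At the brightest probe sets 0 were lower by limma, also at an unadjusted p under 0.05. FBXO22, named after its values were seen, did not pass there (-0.093). Its 5 probe sets differed by -0.46 to 0.044, and 1 of them passed with a fall. DDB2, which recognises ultraviolet lesions, read 10.74, 10.83, 10.71, 10.84 and 10.76 with YAPS94A, against 10.33, 10.38, 10.15, 10.21 and 10.17 with empty vector, without overlap (0.53 ± 0.053, SE, adjusted p = 1.24e-05). XPC, its partner in nucleotide excision repair, rose by 0.57 ± 0.083 (adjusted p = 0.000259). POLH, a polymerase that copies past such lesions, rose by 0.50 ± 0.12 at its brightest probe set and passed on 3 of 6.

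The p53 targets linked to cell death include some that oppose it, such as decoy receptors. Among the 16 measured, 2 were higher, 4 were lower and 10 did not pass, with a median of -0.034. The share past the test was 37.5%, near the 34.4% of all genes. FAS, a death receptor, had a larger change than any of the 8 genes above at their brightest probe sets. It read 10.50, 10.47, 10.54, 10.51 and 10.54 with YAPS94A, against 9.49, 9.53, 9.60, 9.52 and 9.57 with empty vector. All 5 probe sets of FAS rose, by 0.68 to 1.04, and the brightest by 1.96-fold (0.97 ± 0.036, SE, adjusted p = 3.18e-09). TNFRSF10D, a decoy receptor for the death ligand TRAIL, fell, with 10.39, 10.44, 10.34, 10.37 and 10.24 on YAPS94A arrays against 11.13, 11.06, 11.05, 10.92 and 10.91 on empty vector arrays. Its difference was -0.66 ± 0.055 (adjusted p = 2.68e-06), and a second probe set was at -0.20 and did not pass. TNFRSF10C, another decoy receptor, named after its values were seen, counts as not past at its brightest probe set, an _x_at one (0.14, adjusted p = 0.189), while its 3 dimmer probe sets rose, by up to 0.96. AEN, an exonuclease that aids apoptosis, fell by 0.51 ± 0.041 (adjusted p = 1.89e-06). The other calls, named after their values were seen, were PMAIP1, which encodes NOXA (0.28 ± 0.044), TNFRSF10A (-0.24 ± 0.041) and TRIAP1 (-0.13 ± 0.035).

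Counted together, the 4 lists of other p53 targets had 47 of 52 genes measured, of which 12 were higher, 9 were lower and 26 did not pass. That is 44.7% past the test, where 34.4% of all genes passed, with a median of 0.024. The 34.4% set beside each list covers genes of all levels, and among probe sets at or above the median level 44.8% passed. The 10 pathway lists together had 135 of 149 genes measured, with 29 higher, 23 lower and 83 not past the test, or 38.5%.

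**Figure D3:**
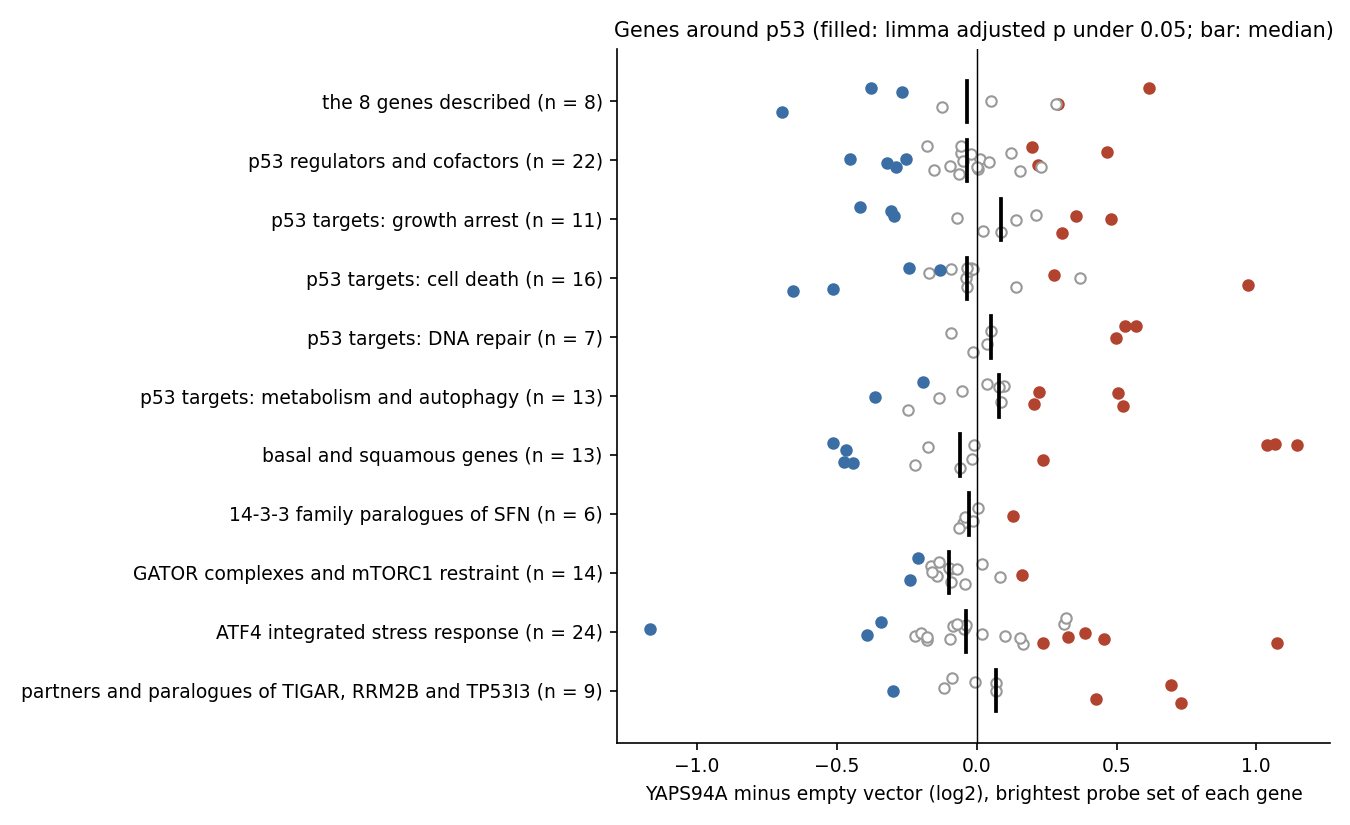
Difference in log2 signal, YAPS94A minus empty vector, of each measured gene in the 8 genes described and the 10 pathway lists, each gene at its brightest probe set. Filled points passed limma's adjusted p of 0.05 and the bar is the list median, which lies between -0.098 and 0.088 for every list.

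Basal and squamous epithelial genes include many known targets of the p53 relative p63. Of 20 listed, 13 were measured, with 4 higher, 4 lower and 5 not past the test (61.5% past it, against 34.4% of all genes) and a median of -0.061. KRT15, a basal keratin, read 10.25, 10.44, 10.33, 10.29 and 10.24 with YAPS94A, against 9.35, 9.32, 9.26, 9.16 and 9.14 with empty vector (1.07 ± 0.056, SE, adjusted p = 5.31e-08). JAG2, a Notch ligand, rose by 1.04 ± 0.088 on the brightest of its probe sets, and the other rose too. S100A2, a calcium-binding protein of basal cells that p53 also induces, fell by 0.44 ± 0.038. The other calls, named after their values were seen, were rises of ITGB4 (1.15 ± 0.13), an integrin of hemidesmosomes, and SERPINB5 (0.24 ± 0.056), and falls of the basal keratin KRT5 (-0.51 ± 0.13) and the desmosomal cadherins DSG3 (-0.47 ± 0.062) and DSC3 (-0.48 ± 0.081). The basal keratin KRT14 differed by -0.010 ± 0.049.

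Neighbouring genes shifted with TIGAR and SESN1 but not with the other members to that degree. Over all 19690 genes with a neighbour median, the 5th percentile of that median was -0.24 and the 95th was 0.18. The medians around TIGAR (-0.26) and SESN1 (-0.31) lay below the 5th percentile. Those around MDM2 (-0.036), SFN (-0.0092), SESN2 (0.052), TP53I3 (0.032), ZMAT3 (-0.065) and RRM2B (0.054) lay between the 5th and the 95th. SFN was higher than 29 of its 30 neighbours, of which 3 were higher with YAPS94A, 5 were lower and 22 did not pass. Relative to its neighbours TP53I3 was at 0.26 and ZMAT3 at -0.20, and both still passed.

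**Figure D4:**
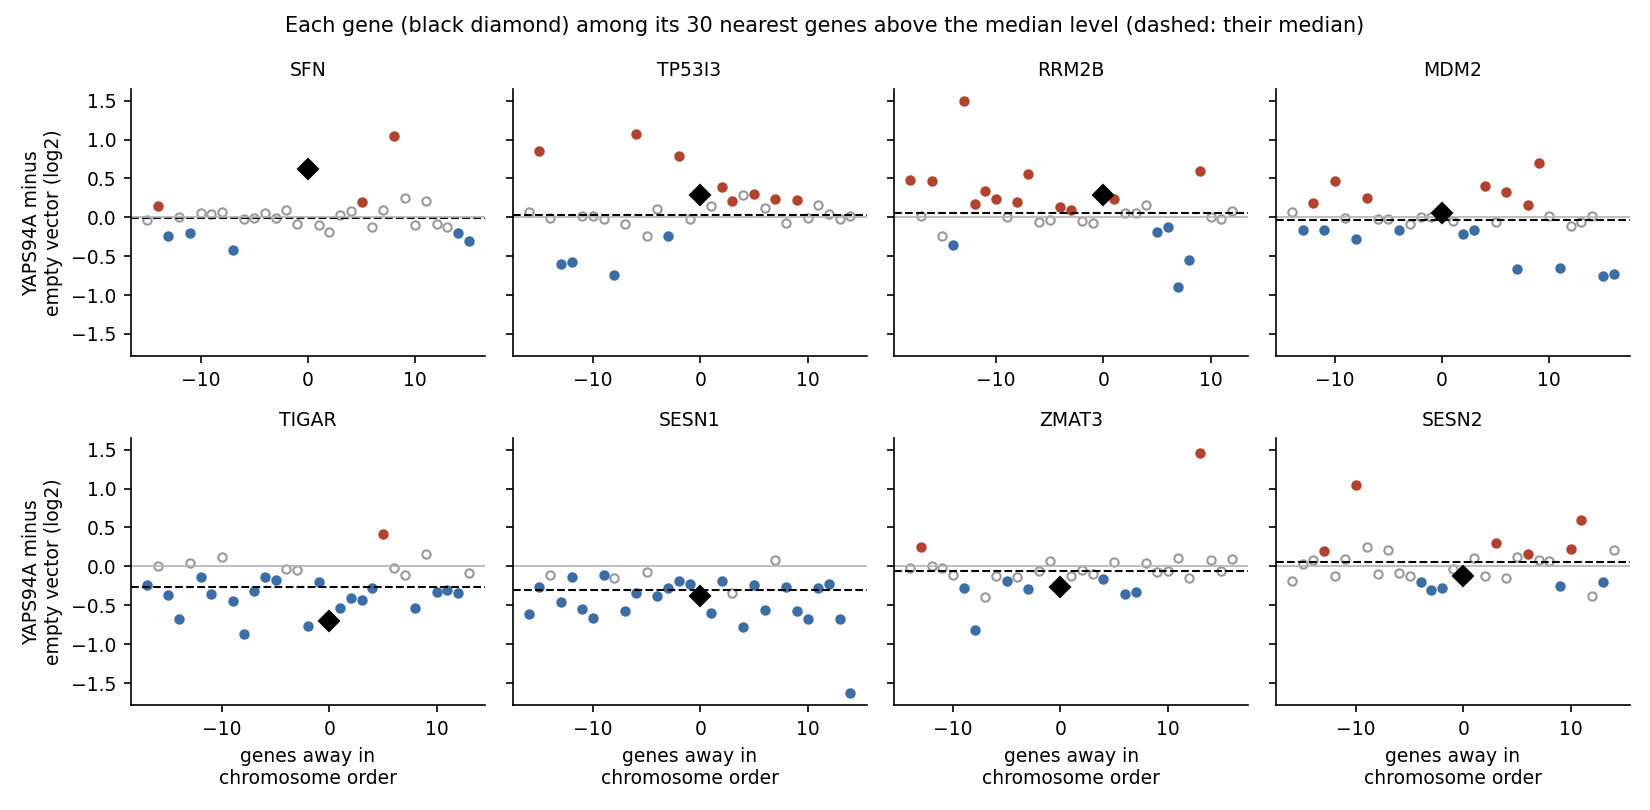
Difference in log2 signal, YAPS94A minus empty vector, of each of the 8 genes (black diamond) and its 30 nearest genes above the median level, in chromosome order by rank from the gene. The dashed line is the neighbours' median, which lies below 0 around TIGAR (-0.26) and SESN1 (-0.31).

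The genes most like SFN, TIGAR and SESN1 over the 10 arrays were found by Pearson's r among genes at or above the median level. All share the same arrays and the r values mostly restate the difference between vectors, so no p is given. SFN was most like IGFL1, an insulin growth factor-like gene (r = 0.9984), NUP210, a nuclear pore protein gene (0.9983), and the interferon-induced IFI27 (0.9983). IGFL1, NUP210 and IFI27 rose by 2.15 ± 0.049, 0.83 ± 0.036 and 1.01 ± 0.040 (SE), and 1453 of 9887 candidates had r above 0.9 with SFN. TIGAR was most like the metallothionein gene MT1E (0.9984), the transcriptional repressor gene ZEB1 (0.997) and the methionine sulfoxide reductase gene MSRB1 (0.9959). MT1E, ZEB1 and MSRB1 fell by 0.70 ± 0.038, 1.24 ± 0.059 and 0.80 ± 0.048. SESN1 was most like MRPL40, a mitochondrial ribosomal protein gene (0.9843), NGRN (0.9835) and NOLC1 (0.9831), which differed by -0.17 ± 0.036, -0.14 ± 0.035 and -0.16 ± 0.033. Relative to its own neighbours MRPL40 was at -0.0056 and did not pass (adjusted p = 0.914), and NGRN lost its call without the arrays numbered 1 and 2 (-0.12, adjusted p = 0.0825) but was at -0.22 relative to its neighbours.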

How the data were processed

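Per the labels' protocols, HuCCT1 total RNA went through NuGEN Ovation amplification and was hybridised to Affymetrix arrays as biotin-labelled cDNA. The deposited values are log2 signals of 54675 probe sets on 10 arrays. Their summary and normalization by the authors are not given in the sources used here, and no further normalization was applied. The number of arrays limits the precision.

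The platform annotation named the probe sets, and RefSeq GRCh38.p14 updated older symbols. Of them 41097 had 1 gene symbol, 1801 several and 11777 none, and the RefSeq table held 41043 of those with 1 symbol. Control probe sets (62) were left out. The vectors were compared with limma 3.58.1 in R 4.3.3 (lmFit and eBayes, no covariate, two-sided, Benjamini-Hochberg over 54613 probe sets, threshold 0.05), and the fit was tested on simulated data. A gene was read by its brightest probe set. Differences are YAPS94A minus empty vector. A neighbour median covers the 30 nearest genes above the median gene level in chromosome order.

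The members and gene lists were chosen with earlier results of these data known. Named genes were the members, TP73, MDM4, SESN3, RRM1, RRM2 and CDKN1A, the 3 genes with the smallest p of each pathway list, and the 3 genes most like each of the 3 members with the smallest p. Genes named otherwise are marked as such, and the marker genes SERPINA1, LUM, COL1A1, COL3A1, LYZ and HBB were also chosen after their values were seen. Alternatives covered renormalization, filters, the variance model, array weights, the replicate number, RNA quality, left-out arrays and neighbours. Both vectors number their arrays 1 to 5. Arrays of equal number deviated from their vector's mean with a correlation of 0.102 to 0.59 over genes, above 0.1 in all 5 pairs, and of 0.063 to 0.54 over probe sets, under 0.1 in 1 pair. Of the 10 arrays 4 were most like the one with their own number. The numbers are thus a possible pairing that no label states. The fit blocked by that number is quoted wherever it alters a call of a member or rule-named gene, or moves a count by over 1.5 times.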

Additional observations from a re-analysis of the deposited data

Results flagged for a closer look

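Of 136 groups of 5 arrays, 68 probe sets in each vector, 5 had 1 array far from the other 4, with a gap to the nearest of them above 0.71 of the group's range (Dixon's test, which by chance marks about 1 in 20 groups). SESN2 at 223196_s_at had a ratio of 0.832 with YAPS94A, because replicate 2 read 8.18 and the other 4 arrays 7.81 to 7.87. MDM2 at 217542_at had a ratio of 0.801 with YAPS94A, because replicate 1 read 8.41 and the others 8.50 to 8.52. SFN at 33323_r_at had a ratio of 0.791 with YAPS94A, because replicate 5 read 12.86 and the others 12.94 to 12.96, all above every empty vector array. RRM2 at 209773_s_at had a ratio of 0.721 with YAPS94A, because replicate 2 read 13.23 and the others 13.12 to 13.15. ZEB1 at 212764_at had a ratio of 0.822 with YAPS94A, because replicate 2 read 7.13 and the others 7.34 to 7.38. Of the 5 ratios, 3 were of YAPS94A replicate 2, whose 3′ minus 5′ difference of control probe sets (0.82) was the highest of its vector. The part of RNA quality in these values was not tested.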

How the results depend on the processing

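The calls of SFN at its 3 probe sets, of TIGAR, of TP53I3 and of ZMAT3 at 227221_at and 1555609_a_at held in every alternative run on them. The setting without _x_at and _s_at probe sets could not be run on TP53I3 or SESN1, each read only by an _s_at one. RRM2B at 223342_at passed with array weights (0.28, adjusted p = 0.0371), with the replicate block (0.28, adjusted p = 0.0269) and with the RNA quality covariate (0.28, adjusted p = 0.0191). It ranged from 0.23 to 0.37 with 1 array left out, and passed in 1 of those 10 fits, the one without YAPS94A replicate 2. RRM2B thus passed in 4 of 21 alternatives and did not pass in 17, with limma adjusted p-values up to 0.171. With the neighbour median subtracted SESN1 was at -0.069 and lost its call, MDM2 at 229711_s_at was at 0.089 and passed, and RRM1 (0.030), YWHAE (0.0064), YWHAG (0.0072), SEC13 (-0.15) and CASTOR1 (0.088) changed sign. Without _x_at and _s_at probe sets, where fewer are tested, 10194 probe sets passed, ASNS was at -0.056 and RRM2 at -0.055. Near 0, signs turned for RRM1 with quantile normalization (0.0022) and median centring (0.0028), for TP73 with quantile normalization (-0.014) and array weights (-0.0042), and without the arrays numbered 1 and 2 for TP73 (-0.060), SESN3 (0.025) and MDM2 at 238733_at (-0.043), a setting in which YWHAZ, CASTOR1, NGRN and ZMAT3 at 219628_at lost their calls. Leaving out 1 array gave ranges that crossed 0 for MDM2 at 211832_s_at (-0.0012 to 0.18), 205385_at (-0.019 to 0.041), 205386_s_at (-0.064 to 0.089), 238733_at (-0.0041 to 0.094) and 237891_at (-0.028 to 0.032), TP73 (-0.075 to 0.082), MDM4 (-0.17 to 0.052) and RRM1 (-0.026 to 0.017). None of these passed the test. Over the alternatives 7 to 12 of the 24 probe sets, 5465 to 8342 genes and 37 to 73 of the pathway genes passed. With the replicate block 12 of the 24 probe sets passed, among them RRM2B (adjusted p = 0.0269) and ZMAT3 at 228315_at and 225725_at (adjusted p = 0.0181 and 0.00624). YWHAZ lost its call (adjusted p = 0.0525). Apart from YWHAZ, RRM2B and those ZMAT3 probe sets, no member or gene named by the rule changed its call in that fit. Genes named after their values were seen were not followed singly through the alternatives, and some list counts moved. The RNA quality covariate also gave 12, with those 2 ZMAT3 probe sets at adjusted p-values of 0.00462 and 0.00939. Rescaling moved the median of all genes by at most 0.0086.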
